A study of Homo sapiens with 12 samples.

Results

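The 6 subunits of the MCM2-7 helicase were taken from the 58233 genes of the deposited count table by their gene names (MCM2, MCM3, MCM4, MCM5, MCM6 and MCM7), and were compared with each other across the conditions of the study. RNA was sequenced from HCT116 cells, an established human colorectal carcinoma line, to follow what happens to the transcriptome when SDS22 is removed. SDS22, encoded by PPP1R7, is a regulatory partner of protein phosphatase-1. The parental line was HCT116 Tet-OsTIR1, in which a tetracycline-inducible promoter drives the rice F-box protein OsTIR1 from both alleles of AAVS1. In the SDS22-degron line, made from it, endogenous SDS22 carried in addition the mAID-mClover tag, so that doxycycline (Dox) and the auxin indole-3-acetic acid (IAA) led to degradation of the tagged protein. Each line was left untreated or received 2 µg/ml Dox plus 500 µM IAA for 48 h, which gave 4 groups of 3 libraries, labelled as biological replicates. OsTIR1 was therefore inducible in all 12 libraries and induced in the treated cells of both lines. The degron line came from drug-selected colonies, and whether more than 1 colony was sequenced is not given in the sources used here.

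MCM2-7 is a ring of related ATPases that unwinds DNA at replication forks. In G1 phase, ORC, CDC6 and CDT1 load the ring onto origins as an inactive double hexamer (origin licensing), and in S phase CDC45 and the GINS complex join it to form the active CMG helicase. Proliferating cells make the subunits in excess over the rings that fire, and the genes are classical E2F targets whose transcripts are low in resting cells.

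Reads counted on genes ranged from 12133915 to 14657508 per library, and 16657 genes passed the filter on low counts, the 6 subunits among them. PPP1R7 transcript was 44.02 ± 2.95 CPM (CPM, counts scaled to library size with TMM factors, mean ± SD, n = 3) in untreated and 47.9 ± 3.39 CPM in treated SDS22-degron cells. Since the degron acts on the protein, this level does not check the depletion. The paper reports that the tagged protein became undetectable after Dox/IAA by immunoblotting and mClover fluorescence, while SDS22 in parental cells was not affected. Of 10 epithelial markers, 7 were above 1 CPM in every group, with KRT8 at 1065 to 1841 CPM, whereas CDX1 was at 0 and VIL1 and LGALS4 had at most 2 counts in a library. Markers of other cell types summed to between 19.5 and 34.6 CPM in the other 3 groups and to between 43.6 and 63.3 CPM in treated SDS22-degron cells, with CD3E and COL1A2 at 0, PTPRC and PECAM1 at no more than 1 count, and ACTA2 and COL1A1 as the main contributors. Their part in the results was not tested. In bulk RNA, fewer cells with a transcript and less transcript per cell cannot be told apart, nor can a change in the share of cells that were cycling.

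With Dox/IAA, the transcripts of the 6 subunits fell together in SDS22-degron cells, to between 38.4% and 53.3% of the untreated level. All 6 passed the test (adjusted p under 0.05 by edgeR's quasi-likelihood test, adjusted by Benjamini-Hochberg over all tested genes), against 25.5% of all tested genes called lower. The median log2 fold change of the subunits was -1.19, while that of all tested genes was 0.00. Under the cut-off used by the study, an unadjusted p under 0.05 and a log2 fold change below -1, 5 subunits passed, against 4.02% of tested genes, and MCM6 fell short of it. The study applied this cut-off to treated SDS22-degron versus parental cells, with the likelihood ratio test of edgeR. Here it was applied with the p of the quasi-likelihood test. Treated and untreated libraries of the degron line overlapped for none of the 6, against 29.7% of tested genes that did not overlap and were lower. The summed level of the 6 transcripts was 1865 ± 25.1 CPM in untreated and 792 ± 115 CPM in treated SDS22-degron cells.

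**Figure D1:**
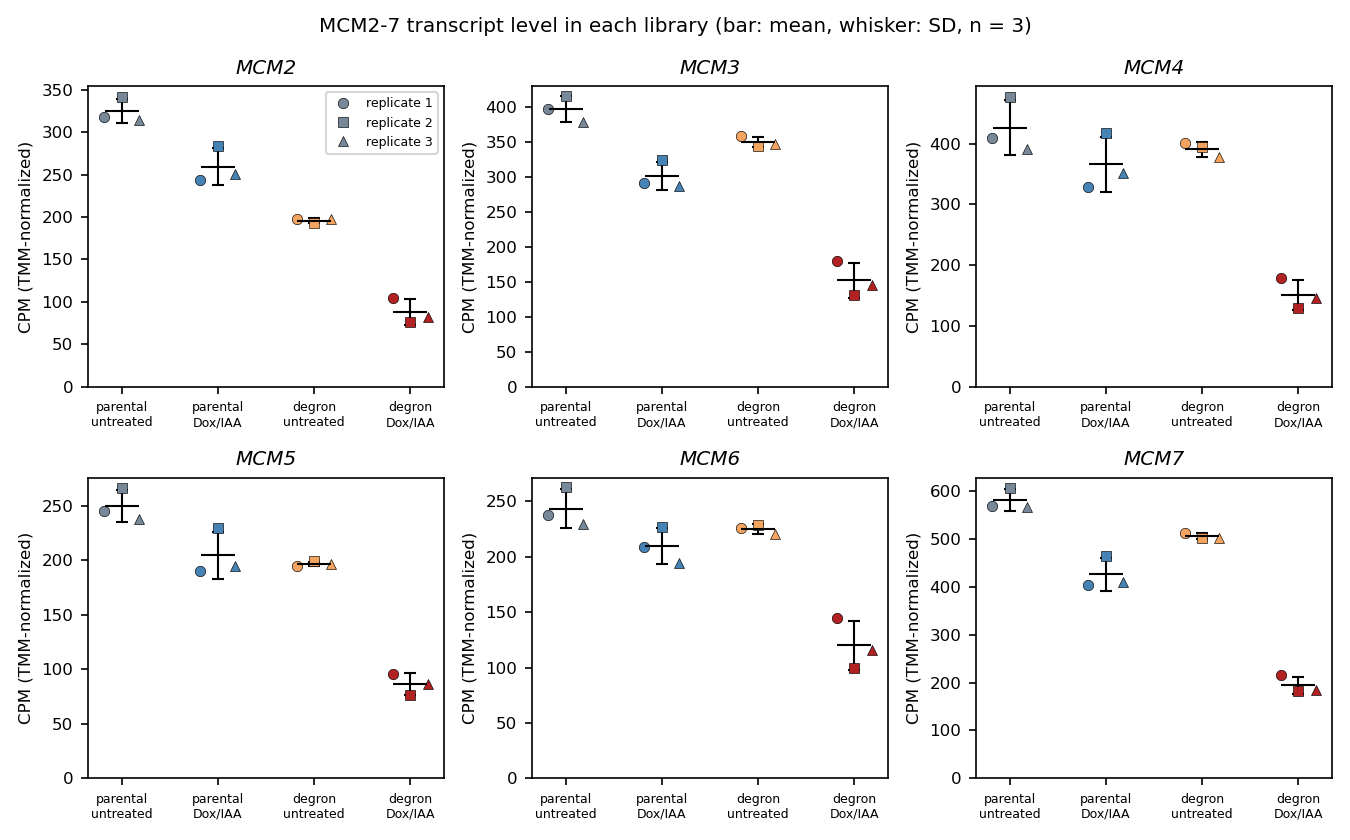
Transcript level in CPM (y axis, from 0) in the 4 groups (x axis) for each subunit, where every symbol is a library, the shape gives its replicate number, and the bar and whiskers are the mean and SD. The treated SDS22-degron libraries lie below all other libraries in the 6 panels, and replicate 1 is the highest of them each time.

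MCM2 and MCM5 form the gate through which DNA enters the ring, and the amino-terminal tail of MCM2 also binds histones H3 and H4. MCM2 was at 318, 341 and 315 CPM in untreated and at 243, 284 and 250.4 CPM in treated parental cells. In SDS22-degron cells it was at 197.5, 193 and 197 CPM untreated and at 105, 76.6 and 82.4 CPM treated. No 2 of these groups overlapped, and already the untreated degron libraries lay below every parental library. The Dox/IAA effect in the degron line was a log2 fold change of -1.15 (SE 0.0931, adjusted p = 1.76e-08 by edgeR).

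MCM5 was at 245, 266 and 238 CPM in untreated and at 190.1, 229 and 194 CPM in treated parental cells. Its SDS22-degron libraries held 195, 199 and 197 CPM untreated and 96.1, 76.4 and 86.4 CPM treated. Untreated degron libraries thus fell within the range of treated parental ones, and treated degron libraries lay far below all others. The log2 fold change with Dox/IAA in the degron line was -1.19 (SE 0.0853, adjusted p = 4.98e-09 by edgeR).

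MCM3 is the subunit whose carboxy terminus first contacts ORC and CDC6 at the origin. Parental cells had 397, 415 and 378 CPM of MCM3 untreated and 291, 324 and 287 CPM treated. In SDS22-degron cells the values were 358, 344 and 348 CPM untreated and 179.9, 131 and 146 CPM treated. The untreated degron libraries lay between the untreated and the treated parental ones, and the treated degron libraries lay below all of them. The log2 fold change with Dox/IAA in the degron line was -1.20 (SE 0.0898, adjusted p = 7.86e-09 by edgeR).

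MCM4, MCM6 and MCM7 make up the part of the ring with which helicase activity was first seen in isolation, and MCM4 carries a tail that the DBF4-dependent kinase CDC7 phosphorylates when origins fire. MCM4 was at 409, 477 and 391 CPM in untreated and at 329, 417 and 352 CPM in treated parental cells. The SDS22-degron libraries held 401, 394 and 377 CPM untreated and 178, 129 and 146 CPM treated. MCM4 was the subunit with the widest spread between parental replicates, and it was the only subunit whose treated and untreated parental libraries overlapped, although the treated library was lower than the untreated one of the same number in 3 of 3 pairs. Its log2 fold change in the degron line was -1.37 (SE 0.107, adjusted p = 1.19e-08 by edgeR).

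MCM6, whose carboxy-terminal domain binds the loading factor CDT1, was at 238, 263 and 229 CPM in untreated and at 209, 227 and 194 CPM in treated parental cells. Untreated SDS22-degron cells had 226, 229 and 220.5 CPM, and treated ones had 144, 100.04 and 116 CPM. Treated degron libraries were again below all others, although by less than for the other subunits. The log2 fold change was -0.91 (SE 0.0993, adjusted p = 5.84e-07 by edgeR).

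MCM7 also hosts the miR-106b-25 cluster of microRNAs inside the gene. Parental cells had 569.8, 607 and 568 CPM untreated and 404, 466 and 409.8 CPM treated. In SDS22-degron cells the values were 513, 503 and 502 CPM untreated and 216, 183 and 184 CPM treated. No 2 of these groups overlapped, and the order from high to low was untreated parental, untreated degron, treated parental and treated degron. The log2 fold change was -1.38 (SE 0.0753, adjusted p = 5.49e-10 by edgeR), and 1.24% of all tested genes had a lower one.

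Since the subunits moved together, the letters around their transcription starts were read. Promoters were taken as the 250 bases before to the 50 bases after a start annotated by RefSeq (GRCh38.p14). They were searched for 4 subunits only. No promoter of MCM4 or MCM5 was searched, so the counts of subunits with a match leave these genes out. MCM2, MCM3 and MCM6 had a single start in the table, and MCM7 had 3, of which the most upstream is shown. The sequences run 5′ to 3′ from 160 bases before the start to 20 bases from it, and capitals mark E2F-like letters (TTTCCCGC, TTTGGCGC, TTTCGCGC, TTTGCCGC, TTTGGCGG, TTTCCCGG, TTCCCGCC or GGCGGGAA) and the CCAAT box, each on either strand.
MCM2, chr3:127598251-127598430 (plus strand): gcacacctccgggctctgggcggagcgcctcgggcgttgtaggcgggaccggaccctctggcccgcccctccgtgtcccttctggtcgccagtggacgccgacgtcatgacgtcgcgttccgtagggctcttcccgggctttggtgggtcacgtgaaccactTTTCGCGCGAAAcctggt
MCM3, chr6:52284723-52284902 (minus strand): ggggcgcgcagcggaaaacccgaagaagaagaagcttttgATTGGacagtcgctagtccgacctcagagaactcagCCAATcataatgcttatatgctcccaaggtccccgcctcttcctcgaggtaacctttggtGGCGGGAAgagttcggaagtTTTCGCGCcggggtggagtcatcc
MCM6, chr2:135876424-135876603 (minus strand): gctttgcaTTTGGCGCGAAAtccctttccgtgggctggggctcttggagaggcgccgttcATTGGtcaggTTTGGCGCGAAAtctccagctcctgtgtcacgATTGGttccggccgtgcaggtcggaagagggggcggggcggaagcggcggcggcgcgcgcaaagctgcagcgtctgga
MCM7, chr7:100101378-100101557 (minus strand): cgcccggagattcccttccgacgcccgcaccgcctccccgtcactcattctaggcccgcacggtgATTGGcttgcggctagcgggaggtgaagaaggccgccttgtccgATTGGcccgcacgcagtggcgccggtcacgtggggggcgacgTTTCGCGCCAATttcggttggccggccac

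E2F-like letters were found in a window of all 4 subunits searched, against 7.54% of the 35116 promoters in the table. Here and for the other letters, a subunit counted if any of its starts matched, whereas the shares are of single promoters. In MCM2 they began 2 bases after the start, and in MCM3 at 174 (outside the letters shown), 24 and 4 bases before it. In MCM6 they began 152 and 90 bases before the start, and in the printed MCM7 window 9 bases before it, with a further match 187 bases before it that lies outside the letters shown. In MCM2, at both places in MCM6 and in MCM3 at its farthest match, 2 of the listed motifs overlap each other. The CCAAT box was present in MCM3, MCM6 and MCM7 and not among these letters of MCM2, against 34.6% of promoters with it, and in the MCM7 line the last CCAAT overlaps the E2F-like letters. GGGCGG, on either strand, was found in MCM2, MCM6 and MCM7, against 45% of promoters. Of the letters TTTGAA or TTCGAA, known as the CHR element of genes repressed outside G2/M, MCM6 had a match 246 bases before the start, against 16.4% of promoters, and the letters TATAAA were in none of the 4, against 11.5%. Of the other MCM7 starts, that at 100100529 had an E2F-like match 136 bases before it and that at 100100754 had none. These matches describe the letters and not binding.

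Replicates of the treated degron group differed more than those of the untreated degron group, and the 6 subunits differed together. Replicate 1 of treated SDS22-degron cells lay 0.23 log2 units above its group mean on average over the subunits, and replicate 2 lay 0.18 log2 units below it. In parental cells, replicate 2 was the highest for all 6 subunits in both groups, by 0.14 log2 units on average when treated and 0.10 when untreated. Across the 12 libraries, the deviations from the group mean of any pair of subunits correlated with a Pearson r between 0.87 and 0.98 (median 0.92 over 15 pairs), where the points share libraries and their normalization. This correlation was not computed for other genes, so it is not shown to be particular to the subunits. Without replicate 1 of the treated degron cells the median log2 fold change of the 6 subunits was -1.33, and without replicate 2 it was -1.11.

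The same treatment was given to parental cells, which have no tagged SDS22, and there the subunits changed less. MCM2, MCM3, MCM5 and MCM7 fell, that is 4 of 6, against 15.7% of all tested genes called lower, and the median log2 fold change of the 6 was -0.31. MCM7 fell by 0.45 on the log2 scale (SE 0.0734, adjusted p = 0.000186 by edgeR), MCM3 by 0.40 (SE 0.0878, adjusted p = 0.00202), MCM2 by 0.32 (SE 0.0893, adjusted p = 0.00979) and MCM5 by 0.29 (SE 0.0823, adjusted p = 0.0123). The log2 fold changes of MCM4 and MCM6 were both -0.22 and did not pass the test (SE 0.104 and 0.0975, adjusted p = 0.119 and 0.102 by edgeR). The treated and untreated parental libraries did not overlap for 5 subunits, against 20.2% of tested genes that did not overlap and were lower. Over all genes this comparison was the one most open to scaling, with 2608 genes called lower and 2656 higher, but 3845 and 1874 after a correction for GC content, when all 6 subunits were called lower, and 1958 and 3503 with library size only, when 4 were. With full-quantile normalization 2 subunits remained called, MCM3 and MCM7. The call of MCM5 was lost when replicate 2 of untreated parental cells or replicate 1 or 3 of treated parental cells was left out, where the adjusted p by edgeR was 0.0556, 0.0648 and 0.0607, and MCM4 was called lower without replicate 2 of treated parental cells, with an adjusted p by edgeR of 0.0236.

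The interaction of cell line and treatment asks whether the response to Dox/IAA differed between the lines, and it did for each subunit. All 6 fell further in SDS22-degron than in parental cells, against 8.35% of all tested genes with an interaction in this direction. The difference of the log2 fold changes was -1.15 for MCM4 (SE 0.149, adjusted p = 7.31e-05 by edgeR), -0.93 for MCM7 (SE 0.104, adjusted p = 3.06e-05) and -0.90 for MCM5 (SE 0.118, adjusted p = 8.38e-05). It was -0.83 for MCM2 (SE 0.128, adjusted p = 0.000314 by edgeR), -0.80 for MCM3 (SE 0.125, adjusted p = 0.000339) and -0.69 for MCM6 (SE 0.139, adjusted p = 0.00256). MCM4 had the lowest and MCM6 the highest of these values, and the difference between subunits in the interaction was not tested. Over all genes the interaction was called lower for 1391 and higher for 1005, and for 1219 and 1345 after the GC correction, under which all 6 subunits kept their call.

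**Figure D2:**
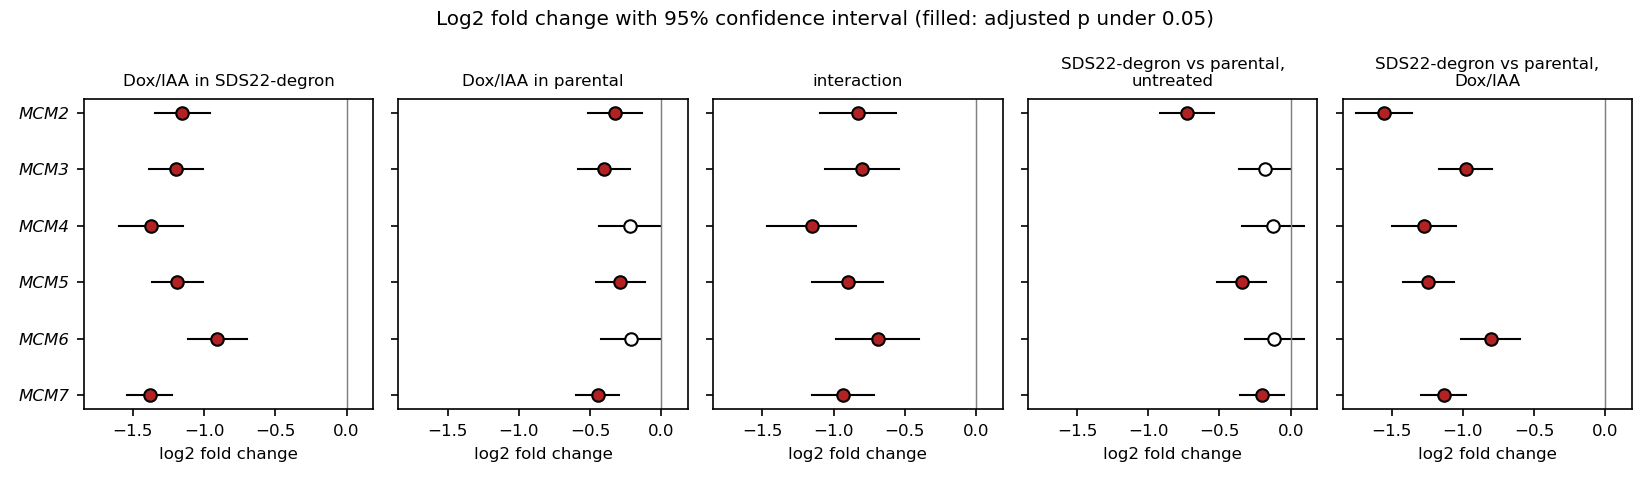
Log2 fold change (x axis) of each subunit (y axis) in the 5 comparisons, as a point with its 95% confidence interval, filled where the adjusted p was under 0.05. Intervals lie wholly below 0 for all 6 subunits except between the untreated lines, with those of MCM4 and MCM6 in parental cells ending just below 0, and MCM2 stands at -0.73 between the untreated lines while the other 5 lie between -0.34 and -0.11.

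Before any treatment all 6 log2 fold changes between the lines were negative, and 3 passed the test. MCM2 was lower in untreated SDS22-degron than in untreated parental cells with a log2 fold change of -0.73 (SE 0.0899, adjusted p = 9.36e-06 by edgeR), which was the largest difference among the 6. MCM5 was lower by a log2 fold change of -0.34 (SE 0.0823, adjusted p = 0.00412 by edgeR), and MCM7 of -0.20 (SE 0.0732, adjusted p = 0.0479). These 3 of 6 called lower stand against 15% of tested genes. The call of MCM7 was lost in 9 of 17 alternatives, among them leaving out any of the 6 libraries, with an adjusted p by edgeR of up to 0.183. MCM3, MCM4 and MCM6 did not pass the test (log2 fold changes -0.18, -0.12 and -0.11, adjusted p = 0.133, 0.410 and 0.416 by edgeR). Without replicate 2 of untreated parental cells the values of MCM4 and MCM6 were -0.01 and -0.03. Libraries of the untreated lines did not overlap for 5 subunits, against 21.9% of tested genes that did not overlap and were lower. After the GC correction 4 subunits were called lower, MCM3 in addition, while the calls over all genes went from 2500 lower and 2198 higher to 3196 and 1797.

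MCM2 lies on chromosome 3, and genes of this chromosome were lower as a group in the degron line. The median log2 fold change between the untreated lines was -0.27 over 938 tested genes of chromosome 3 and -0.35 over the 74 tested genes within 5 Mb of MCM2, beside -0.73 for MCM2 itself. For the chromosomes of the other subunits the medians lay between -0.11 and 0.12. The response to Dox/IAA within the degron line had a median of -0.01 over chromosome 3. The part of the chromosome in the level of MCM2 was not tested.

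Between the treated lines, all 6 subunits were lower in SDS22-degron cells, against 23.1% of all tested genes. MCM2 differed most, with a log2 fold change of -1.56 (SE 0.0934, adjusted p = 1.11e-09 by edgeR), which combined its lower level before treatment with the response, and 0.732% of tested genes had a lower one. MCM6 differed least, at -0.81 (SE 0.0994, adjusted p = 3.47e-06 by edgeR). The others were at -1.28 for MCM4, -1.24 for MCM5, -1.13 for MCM7 and -0.98 for MCM3. By the cut-off of the study 4 subunits passed, against 3.38% of tested genes, and MCM3 and MCM6 did not reach the required log2 fold change between these groups.

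The subunits assemble in equal numbers, so the proportions between their transcripts were compared next. Each subunit was set against the mean log2 CPM of the other 5 in the same library. Depth and library scaling cancel in this quantity. A correction that differs between genes, such as that for GC content, does not cancel. Neither this quantity nor the pairwise ratios below were recomputed under it. The GC content was 42.3% for MCM6 and between 48.2% and 57.3% for the other 5. Against the other 5, MCM6 stood at -0.64 ± 0.0200 (SD, n = 3) in untreated and -0.52 ± 0.0737 in treated parental cells. In SDS22-degron cells it was at -0.44 ± 0.0256 untreated and at -0.10 ± 0.0701 treated, and its treated degron libraries lay above all others. MCM2 was at -0.15 ± 0.0308 and -0.16 ± 0.0205 in untreated and treated parental cells, and at -0.68 ± 0.0280 and -0.63 ± 0.0459 in untreated and treated degron cells. MCM6 therefore stood apart in treated degron cells, while MCM2 stood apart between the lines and differed by 0.05 and -0.01 with treatment within the degron and the parental line. For MCM4 and MCM7 this difference was -0.21 each in the degron line, and in parental cells it was 0.12 for MCM4 and -0.16 for MCM7.

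**Figure D3:**
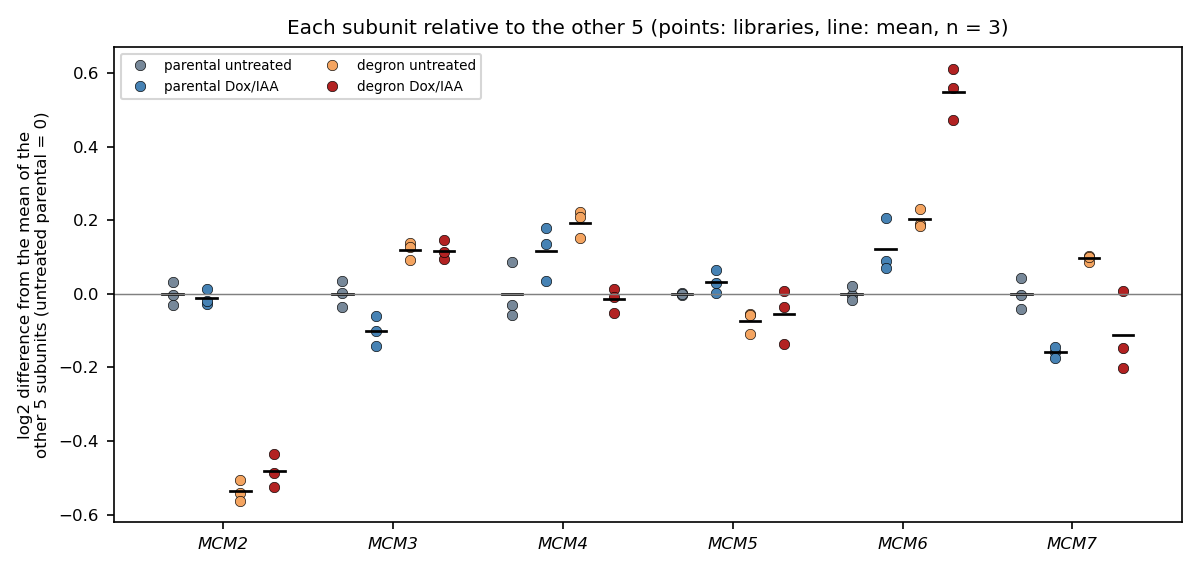
Log2 difference of each subunit from the mean of the other 5 (y axis, set to 0 in untreated parental cells), with a point per library and a line at the mean of each group. MCM2 is lowest in both degron groups, MCM6 is highest in treated degron cells, and the group means of the other 4 subunits lie within 0.19 of 0.

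The 15 pairs of subunits were tested on the log2 ratio of their levels. Treated SDS22-degron libraries were compared with the other 9 by exact permutation tests (two-sided, 220 splits, adjusted over 15 pairs), a contrast that mixes line and treatment. The other 9 libraries come from 3 groups whose ratios differ among themselves, so a p describes how far the treated degron libraries stand from the rest and does not test the treatment. Of the 15 ratios 7 had an adjusted p under 0.05. These were the 5 ratios that include MCM6, each at p = 0.00909 in the exact permutation test, the smallest p it can give, and 0.0227 after adjustment. The ratio of MCM3 to MCM4 had the same p, and the ratio of MCM3 to MCM7 an exact permutation p = 0.0182 and 0.0390 after adjustment, although its treated degron libraries overlapped with the treated parental ones. Within the degron line, treated and untreated libraries did not overlap for 11 of the 15 ratios, the exceptions being MCM2 to MCM3, MCM2 to MCM5, MCM3 to MCM5 and MCM4 to MCM7. By the same measure, 9 of the 15 did not overlap between treated and untreated parental cells, and 10 between the untreated lines. Neither these counts nor that of the 7 ratios above were computed for ratios of other tested genes. The 15 ratios share the same subunits and are not independent of each other. The log2 ratio of MCM4 to MCM6 was 0.80 in untreated parental, 0.80 in treated parental and 0.80 in untreated degron cells, and 0.33 in treated degron cells. That of MCM6 to MCM7 was -1.26, -1.02, -1.17 and -0.71 in the same order, so part of its change with treatment was also seen in parental cells. The log2 ratio of MCM4 to MCM7 was -0.37 in both degron groups (difference 0.00033, SE 0.0709) and went from -0.45 to -0.23 with treatment in parental cells. Within the degron line alone the exact permutation test of 3 against 3 libraries cannot go below p = 0.1, so none of the 15 ratios could pass there and the treatment effect on the ratios was not settled by a test.

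Levels of different genes can be compared only per length, and here the order depended on which length was used. Per kb of the deposited gene length, which counts all annotated exons of a gene, MCM7 held 28.6 ± 0.554% (SD, n = 3) of the sum of the 6 subunits in untreated parental cells. MCM3 followed with 23.5 ± 0.401%, then MCM2 with 14.3 ± 0.188%, MCM4 with 13.5 ± 0.672%, MCM6 with 12.8 ± 0.213% and MCM5 with 7.35 ± 0.0321%. The library ranges of MCM2 (14.1% to 14.5%), MCM4 (12.9% to 14.2%) and MCM6 (12.6% to 12.998%) overlapped between neighbours in this order, and those of the other neighbours did not. Per kb of coding length, MCM7 remained first with 29.0 ± 0.624%, MCM4 and MCM3 were level at 17.7 ± 0.834% and 17.6 ± 0.341%, MCM2 and MCM5 followed at 12.9 ± 0.196% and 12.2 ± 0.0330%, and MCM6 was last at 10.6 ± 0.1499%. MCM4 and MCM5 have long deposited lengths (6824 and 7338 bases) beside coding lengths of 2589 and 2202 bases.

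In SDS22-degron cells the share of MCM6 per kb of deposited length was 14.0 ± 0.241% untreated and 17.4 ± 0.770% treated, and in treated cells it ranked behind MCM7 and MCM3 only. The share of MCM2 was 10.2 ± 0.163% untreated and 10.7 ± 0.278% treated, above MCM5 only in both groups. MCM7 went from 29.6 ± 0.0941% to 26.7 ± 1.58%, and MCM3 was at 24.6 ± 0.281% and 24.9 ± 0.467%, and the library ranges of these leading subunits overlapped in treated cells (25.3% to 28.4% and 24.5% to 25.4%). MCM5 stayed last at 6.88 ± 0.141% and 7.07 ± 0.307%. These ranks are those of the deposited length. Per kb of coding length MCM2 was last in untreated and treated degron cells, at 9.22% and 9.77%. By that length MCM6 in treated degron cells, at 14.6%, also ranked behind MCM4, at 17.5%.

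The genes of the subunits lie on 6 chromosomes. By the positions in the deposited table, which are on GRCh38, MCM2 (ENSG00000073111) spans chr3:127598223-127622436 on the plus strand with 17 exons, MCM3 (ENSG00000112118) chr6:52264009-52284881 on the minus strand with 18, and MCM4 (ENSG00000104738) chr8:47960185-47978160 on the plus strand with 17. MCM5 (ENSG00000100297) spans chr22:35400063-35425430 on the plus strand with 21 exons, MCM6 (ENSG00000076003) chr2:135839626-135876426 on the minus strand with 17, and MCM7 (ENSG00000166508) chr7:100092728-100101940 on the minus strand with 13. MCM2, MCM4 and MCM7 start head to head with another gene, while MCM3, MCM5 and MCM6 had no other gene within 2000 bases.

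The head-to-head neighbours had responses of their own, and the difference from the subunits was not tested. PRKDC, the catalytic subunit of DNA-dependent protein kinase, starts 1 base away from MCM4 and was at 923, 853 and 819.7 CPM in untreated and 476, 464 and 469 CPM in the treated degron line. This was a log2 fold change of -0.88 (SE 0.0680, adjusted p = 1.11e-08 by edgeR) and -0.45 in parental cells (SE 0.0675, adjusted p = 9.48e-05), with an interaction of -0.44 (SE 0.0954, adjusted p = 0.00467), beside -1.37, -0.22 and -1.15 for MCM4. TPRA1, a membrane protein gene that overlaps MCM2 by 29 bases on the other strand, was higher in treated than in untreated degron cells, with a log2 fold change of 0.43 (SE 0.0873, adjusted p = 0.000417 by edgeR). Between the untreated lines TPRA1 differed by a log2 fold change of -0.07 (adjusted p = 0.576 by edgeR), where MCM2 was at -0.73. AP4M1, an adaptor complex subunit that overlaps MCM7 by 392 bases on the other strand, had a log2 fold change of -0.07 with treatment of degron cells (SE 0.103, adjusted p = 0.613 by edgeR), and COPS6, 527 bases beyond the other end of MCM7, one of -0.28 (SE 0.0658, adjusted p = 0.00148). The libraries were stranded, but the strand setting of the counting is not given in the sources used here, so reads in the overlaps may have been assigned either way. The 3 microRNA genes inside MCM7, MIR25, MIR93 and MIR106B, had 65, 3 and 2 counts over all libraries and were not tested, and RNU6-519P, 1253 bases from MCM4, had 0 counts.

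Genes of origin licensing, among them regulators as well as loaders of the ring, were lower in treated SDS22-degron cells too. Of 10 genes of origin licensing, 9 were called lower with Dox/IAA, against 25.5% of all tested genes, and their median log2 fold change was -0.87. ORC1, the ATPase subunit of the origin recognition complex, had a log2 fold change of -1.54 (SE 0.151, adjusted p = 1.58e-07 by edgeR), ORC6 of -1.14 (SE 0.115, adjusted p = 2.17e-07), CDT1 of -1.08 (SE 0.0721, adjusted p = 2.48e-09) and MCMBP, a partner of newly made MCM subunits, of -0.75 (SE 0.0776, adjusted p = 2.98e-07). The gene not called was ORC4, with a log2 fold change of 0.00 (adjusted p = 0.971 by edgeR), singled out after its value was seen. In parental cells 3 of the 10 were called lower, against 15.7% of tested genes, and 6 of the 10 had an interaction in this direction, against 8.35%.

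The partners that turn the loaded ring into the CMG helicase and fire the origin fell without exception. All 14 were called lower in treated degron cells, against 25.5% of all tested genes, and their median was a log2 fold change of -1.19, as for MCM2-7. GINS4, a GINS subunit, had a log2 fold change of -1.72 (SE 0.160, adjusted p = 8.70e-08 by edgeR), and CDC45 of -1.54 (SE 0.131, adjusted p = 3.11e-08). TICRR, which brings CDC45 to the ring, stood at -1.53 (SE 0.102, adjusted p = 2.48e-09 by edgeR), and RECQL4 at -1.44 (SE 0.0935, adjusted p = 2.05e-09). In parental cells 2 of the 14 were called lower, a share near the 15.7% of all tested genes, and the interaction was called lower for all 14, against 8.35%.

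Other genes grouped with MCM2-7 by name or function, which are not part of the ring, behaved unequally. MCM10, which helps to activate CMG and is counted among the 14 above as well, had a log2 fold change of -1.42 in treated degron cells (SE 0.148, adjusted p = 3.21e-07 by edgeR). MCM8, which forms a helicase of its own with MCM9 in recombination, had -1.04 (SE 0.112, adjusted p = 4.68e-07), and their loader HROB -1.01 (SE 0.142, adjusted p = 1.07e-05). MCM9 had a log2 fold change of 0.10 and did not pass the test (SE 0.102, adjusted p = 0.418 by edgeR). MCMDC2 had at most 3 counts in a library and was not tested.

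**Figure D4:**
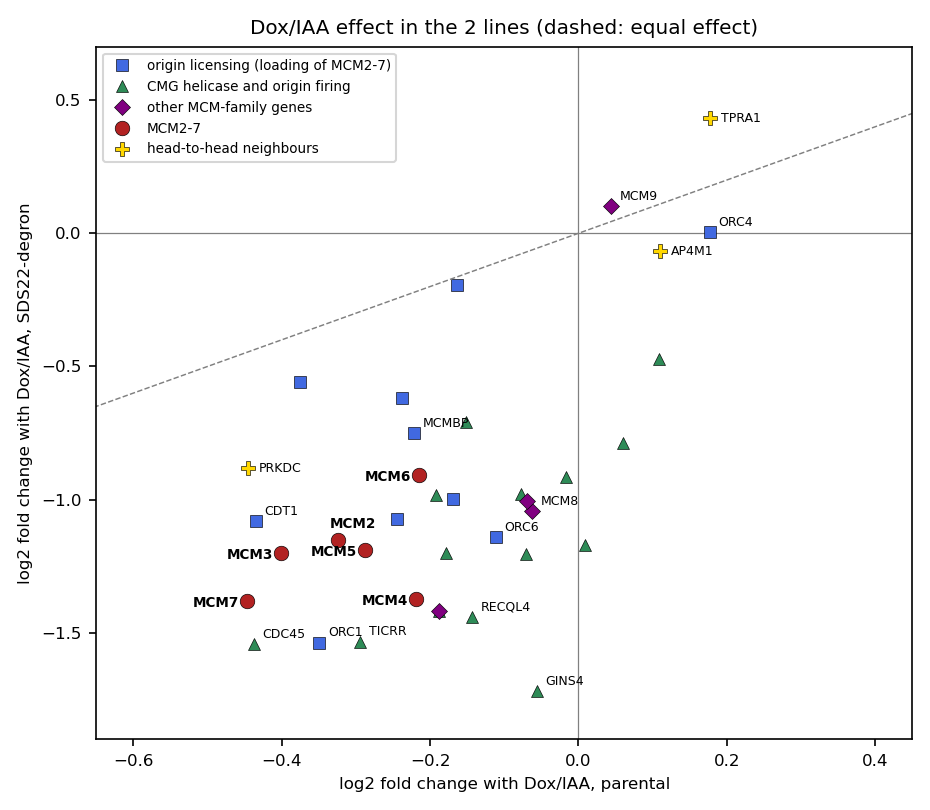
Log2 fold change with Dox/IAA in SDS22-degron cells (y axis) against that in parental cells (x axis), with a dashed line where both would be equal. Shown are MCM2-7, the licensing and firing factors, and the head-to-head neighbours. The genes labelled other MCM-family genes are grouped with MCM2-7 by name or function. MCM2-7 lie between -0.91 and -1.38 on the y axis amid the licensing and firing factors, and TPRA1 lies above 0 at 0.43.

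Further genes of the cycle changed in the same comparison, in which 25.5% of all tested genes were called lower. Of 9 partners in fork protection and chromatin assembly 8 were called lower, among them CHAF1A with a log2 fold change of -1.24, ASF1B with -1.34, TONSL with -1.08 and TIMELESS with -0.65. All 16 other G1/S genes under E2F control were lower, against the same 25.5%, at a median of -1.16 on the log2 scale, among them RFC4, TK1, UNG and PRIM1 with -1.47, -1.27, -0.94 and -1.24. All 14 genes of G2/M were lower as well, again against 25.5%, at a median of -1.502, among them AURKB, KIF20A, CENPF and CDC20 with -1.64, -1.47, -1.53 and -1.71. In parental cells 1 of the 9, 5 of the 16 and 3 of the 14 were called lower, against 15.7% of all tested genes. The interaction was called lower for 8, 13 and 14 in the same order, against 8.35%. UNG had a log2 fold change of -0.66 in parental cells (adjusted p = 5.49e-06 by edgeR). Its interaction was -0.28 and did not pass the test (adjusted p = 0.0866 by edgeR). Of 7 CDK inhibitors 3 were called higher, against 26% of all tested genes, and these were CDKN1C (1.13), CDKN1A (0.71) and CDKN2B (0.95), while CDKN2A was lower (-0.24). In parental cells CDKN1C was higher too, by a log2 fold change of 0.78 (adjusted p = 0.000323 by edgeR), and CDKN2A was lower at -0.23 (adjusted p = 0.0445), and neither passed the test of the interaction (0.35 and -0.01, adjusted p = 0.244 and 0.965 by edgeR). For CDKN1A and CDKN2B the log2 fold changes in parental cells were 0.06 and -0.05, and their interactions were 0.65 and 1.00 (adjusted p = 0.00110 and 0.0522 by edgeR). CDKN1A, which encodes p21, was also higher in untreated degron than in untreated parental cells, with a log2 fold change of 0.94 (SE 0.0837, adjusted p = 2.58e-07 by edgeR).

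Genes with the pattern most like that of the 6 subunits were found by the Pearson correlation of log2 CPM with the mean of the subunits over the 12 libraries, which share line, treatment and normalization. The 10 with the highest r were LMNB1 (0.996), CHEK1 (0.995), DCLRE1B (0.995), DTL, RP11-18B3.2, NET1, ORC1, TICRR, RFC4 and TTF2 (0.992), and 430 of 16651 other genes had an r above 0.95. LMNB1, which encodes lamin B1, had log2 fold changes of -1.20, -0.25 and -0.25 with Dox/IAA in degron cells, with Dox/IAA in parental cells and between the untreated lines, and CHEK1 of -1.06, -0.24 and -0.21. Among the subunits themselves, MCM5 correlated most closely with the mean of the other 5 (r = 0.996), and no other gene had a higher r with that mean. MCM2 had the lowest (r = 0.954), and 389 genes outside the complex followed the other 5 subunits more closely. For MCM3, MCM4, MCM6 and MCM7 the r was 0.989, 0.990, 0.985 and 0.985, and between 16 and 42 other genes had a higher one.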

How the data were processed

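Total RNA of 12 HCT116 cultures was poly-A selected and sequenced as stranded single reads. Per gene, the authors deposited read counts that were not normalized, with the position, length, exon number and GC content (percent) of each gene. The submitters' processing notes name cutadapt 1.15, Bowtie2 2.3.3.1, STAR 2.5.2b, SAMtools 1.5, featureCounts 1.5.3 and GRCh38, and the annotation release and strand setting are not given in the sources used here. All count columns matched a sample label, and 0 rows named no gene.

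Low genes were removed with filterByExpr by group (minimum count 10), and counts were normalized with TMM (factors 0.971 to 1.03) and fitted in edgeR 4.0.16 (R 4.3.3) with a mean per group and the quasi-likelihood F test, adjusted by Benjamini-Hochberg over 16657 genes with a threshold of 0.05. The common biological coefficient of variation was 7.48%. Replicates differed by a chi-square per degree of freedom of 2.06 to 9.02, and 0 pairs of columns were identical. CPM used TMM library sizes, log2 CPM a prior count of 2, and SE and 95% intervals were derived from F and the fold change. Ratios were tested by exact permutation (scipy 1.17.1). Coding and canonical transcript lengths came from GENCODE models lifted to GRCh37, and no coordinate was taken from that build. The fit was tested on simulated counts.

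The genes named were the 6 subunits, PPP1R7, all genes overlapping or within 2000 bases of a subunit, the 10 genes most correlated with the subunits and, per list, at most 4 genes with the smallest p in degron cells. ORC4 and the marker or family genes at or near 0 counts were named outside this rule, after their values were seen. Libraries with the same replicate number deviated together (r above 0.1 in 3 of 3 pairs) in 2 comparisons. For treated against untreated parental cells r was 0.124, 0.246 and 0.131, and between the treated lines it was 0.101, 0.133 and 0.138. By this cut-off the numbers pair these libraries. Between the untreated lines r was 0.058, 0.098 and 0.118, so the cut-off separates close values. The main tests did not use the replicate numbers, and a replicate block was run as an alternative. The members and lists were chosen with earlier results of these data known, so no list is independent support. Alternatives were upper-quartile scaling, library size only, DESeq2 1.42.0, the likelihood ratio test of edgeR, no filter, a filter of 1 CPM, a GC correction (loess span 0.5) with and without the replicate number as a block, full-quantile normalization (pseudocount 0.1), only the groups compared, and each library left out.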

Additional observations from a re-analysis of the deposited data

Results flagged for a closer look

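The response to Dox/IAA differed between the lines for all 6 subunits by the interaction term of edgeR's quasi-likelihood test. The difference of the log2 fold changes, SDS22-degron minus parental, was -0.83 for MCM2, -0.80 for MCM3, -1.15 for MCM4, -0.90 for MCM5, -0.69 for MCM6 and -0.93 for MCM7. Each kept its direction and its call in all 22 alternatives, in which the values ranged from -1.30 (MCM4) to -0.58 (MCM6) and the adjusted p by edgeR, its likelihood ratio test or DESeq2 did not exceed 0.00902. The alternatives include leaving out each library in turn.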

How the results depend on the processing

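The counts of subunits called with Dox/IAA in degron cells (6), between the treated lines (6), in the interaction (6) and between the untreated lines (3) stayed within 1.5 times their value in all alternatives. For the parental response the count was 4, and 2 with full-quantile normalization, and the cause was not tested. The share of MCM7 in treated degron cells was 26.7% per deposited length and 31.9% per canonical transcript length, an alternative chosen after seeing the data. Of 540 single log2 fold changes under alternatives, 14 lost and 10 gained a call and none changed sign. The labels tie the replicate numbers to no common batch. Over all groups the deviations of same-numbered libraries correlated with r between -0.06 and 0.25, above 0.1 in 7 of 18 pairs, and all 12 libraries correlated best with their own number. By the cut-off of r above 0.1 in 3 of 3 pairs, the numbers paired the libraries in the parental response and between the treated lines only. With this number added as a replicate block, 6 subunits were called lower with Dox/IAA in degron cells, 4 with Dox/IAA in parental cells, 3 between the untreated lines, 6 in the interaction and 6 between the treated lines, the same numbers as without the block, and the block changed no call of a subunit. The lowest count of a subunit in a library was 987, and the 3 libraries per group limit the precision.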
